A study of Mus musculus with 12 samples.

Results

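The genes described here make ribosomes: 50 genes that encode the core of RNA polymerase I and its factors, the proteins of small nucleolar ribonucleoproteins (snoRNPs), and the assembly factors of the small and large ribosomal subunits. They were taken by gene name from the deposited table, which held 32285 genes. All 50 were found, 6 for RNA polymerase I, 8 for snoRNPs, 17 for the small subunit, 16 for the large subunit and 3 nucleolar proteins that act at several steps. All 50 also passed the filter on low values, at least 1 FPKM (fragments per kilobase of transcript, scaled to the mapped fragments of the library) in at least 2 libraries, as did 12511 genes in all.

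Transcript levels had been measured by RNA sequencing of naive CD4+ T cells sorted from spleen and lymph nodes of C57BL/6 mice, and the title of the study names RNA m6A modification, alternative polyadenylation and mTOR. Wild type cells of the Mettl3 set were sampled at 0 h without treatment (3 libraries) and after 48 h in culture with anti-CD3/CD28 (3 libraries), antibodies that engage the T cell receptor complex and its costimulatory receptor. Mettl3-/- cells at 0 h gave 2 libraries, numbered 1 and 3. The Nudt21 set held 2 wild type and 2 Nudt21-/- libraries, all untreated at 0 h. METTL3 is the enzyme that writes m6A onto RNA, and NUDT21 belongs to a cleavage complex with a part in where transcripts are polyadenylated. The labels give no Cre driver, no deleted exon, no age, and no word on whether replicates came from separate animals, so the spread behind each p-value is that between libraries and may be technical.

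Ribosome production starts in the nucleolus, where RNA polymerase I transcribes the long precursor of ribosomal RNA. SnoRNPs guide the methylation and pseudouridylation of that precursor, while processing factors fold and cut it and load ribosomal proteins onto the nascent small and large subunits. In T cells the pathway is known to be switched up when a resting cell prepares to grow and divide, with Myc and mTORC1 among its best known regulators.

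The targeted genes were checked first: Mettl3 measured 26.7, 28.7 and 25.3 FPKM in its wild type at 0 h and 5.35 and 6.45 FPKM without it, and Nudt21 measured 18.2 and 16.9 and then 7.57 and 6.69 FPKM. Mettl3 also fell with activation (log2 change -0.75, limma adjusted p = 5.67e-06) and in the Nudt21 knockout (-0.30, limma adjusted p = 0.0351). Nudt21 rose with activation (0.78, limma adjusted p = 9.4e-07) and did not pass in the Mettl3 knockout (-0.05, limma adjusted p = 0.63). Markers of CD4 T cells summed to 1564 FPKM or more in every library, and none of the 6 was at 0. Activated T cell markers (Il2ra, Tnfrsf9, Gzmb and Mki67) summed to 8.06 to 8.99 FPKM at 0 h in the wild type of the Mettl3 set and to 648 to 745 FPKM at 48 h. The 2 Mettl3 knockout libraries stood apart from each other, with a correlation over all tested genes of 0.925 where replicates of every other group reached at least 0.991. Knockout library 3 held 192 FPKM of 4 myeloid markers and 177 FPKM of 3 erythroid markers, against 1.37 and 1.97 FPKM in knockout library 1, so results on that knockout are also given without each of the libraries. No library depth can be read from the table.

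Most of the pathway was higher after activation. At 48 h 42 of the 50 genes were higher and 1 was lower than at 0 h (limma, adjusted p under 0.05), while 43.6% of all 12511 tested genes were higher and 34.9% lower. The median log2 change of FPKM + 1 was 0.59 over the 50 genes and 0.07 over all genes. All 8 snoRNP genes rose (median 0.90), as did 15 of 16 large subunit genes (median 0.69), 14 of 17 small subunit genes (median 0.36) and all 3 genes of several steps (median 1.20). Of the 6 RNA polymerase I genes 2 rose, 1 fell and 3 did not pass (median 0.01). The summed level of the 50 genes went from 1757 to 1826 FPKM at 0 h to 2900 to 3093 FPKM at 48 h, which is from 0.488 to 0.526% of each library's FPKM to 0.787 to 0.828%. As these are bulk libraries, fewer cells of a type and less RNA per cell cannot be told apart, and FPKM give each gene's share of a library, not RNA per cell. The 48 h wild type libraries stood above the 0 h libraries without overlap for 42 of the 50 genes and below them for 1, where 45.3% and 37.6% of all tested genes did so.

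**Figure D1:**
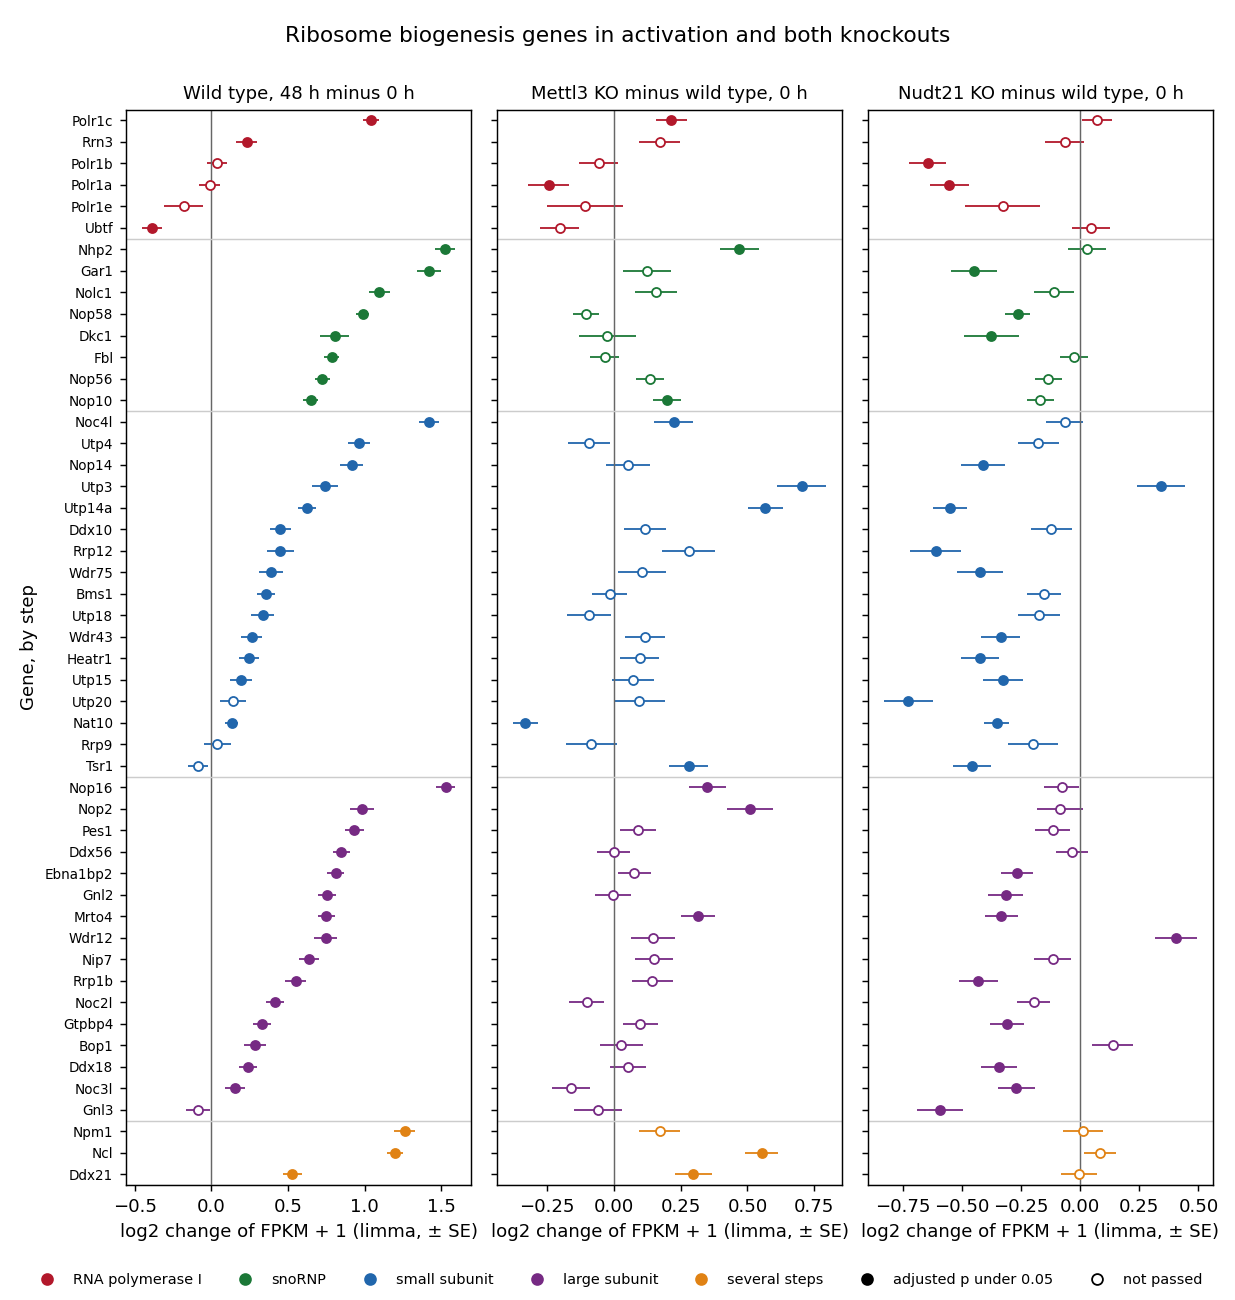
Log2 change of FPKM + 1 (x axis, limma estimate ± SE) of each of the 50 genes (y axis, grouped by step) with activation (left), in the Mettl3 knockout (middle) and in the Nudt21 knockout (right); filled points passed at an adjusted p under 0.05, and the x axes differ in range. In activation 42 genes are filled to the right of 0, against 12 in the Mettl3 and 2 in the Nudt21 knockout, where 23 are filled to the left.

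The split between higher and lower calls moved with the scaling. With quantile normalization 34 of the 50 genes were higher and 4 lower with activation, and over all genes the share of calls that were higher went from 55.5% to 45.7%, while the median change of all genes went from 0.07 to -0.11. With median-ratio scaling the counts were 38 and 2. Correcting for GC content and length of the transcript, an alternative chosen after seeing the data, gave 34 higher and 5 lower. The median of the 50 genes lay above that of all genes by 0.52 with the values as deposited, by 0.56 with quantile normalization and by 0.48 with that correction.

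Among the polymerase I genes the subunit shared with RNA polymerase III rose, and the subunits of the catalytic core did not pass. Polr1c, the shared subunit (ENSMUSG00000067148, chromosome 17, 46243920 to 46248054; all positions are from GENCODE M21 on mm10, and all 50 genes are protein coding), stood at 28.5, 29.0 and 30.1 FPKM at 0 h and at 58.6, 63.2 and 62.1 FPKM at 48 h. The groups were far apart, with a mean of 61.3 ± 2.38 against 29.2 ± 0.795 FPKM (SD, n = 3 and 3) and a log2 change of 1.04 (SE 0.05, limma adjusted p = 4.78e-08). Rrn3, the initiation factor that brings the polymerase to the promoter (ENSMUSG00000022682, chromosome 16, 13780708 to 13814839), went from 16.0, 16.0 and 18.7 to 19.9, 20.2 and 19.8 FPKM. Its groups did not overlap, but the step was small, 0.23 (SE 0.07, limma adjusted p = 0.00961), and it did not pass with median-ratio scaling or quantile normalization and was -0.01 with the GC and length correction. Polr1a, the largest subunit, which holds the active site (ENSMUSG00000049553, chromosome 6, 71909053 to 71984935), stood at 16.4, 16.6 and 17.4 FPKM and then at 15.7, 17.0 and 17.4 FPKM, a change of -0.01 (SE 0.07, limma adjusted p = 0.901). Polr1b, the other large core subunit (ENSMUSG00000027395, chromosome 2, 129100995 to 129126594), stood at 23.3, 24.0 and 21.4 and 23.5, 24.6 and 22.5 FPKM, a change of 0.04 (SE 0.06, limma adjusted p = 0.604). For both the libraries of the 2 times overlapped. Polr1e, a subunit that helps the polymerase to engage initiation factors (ENSMUSG00000028318, chromosome 4, 45018583 to 45036565), had 17.1, 12.02 and 11.3 FPKM at 0 h, with library 1 well above the others, and 11.96, 11.9 and 10.9 FPKM at 48 h, a change of -0.18 (SE 0.13, limma adjusted p = 0.223) that became -0.33 and passed with quantile normalization, and -0.44 and passed with the GC and length correction. Ubtf, the HMG box protein that keeps ribosomal DNA open (ENSMUSG00000020923, chromosome 11, 102304560 to 102319742), was the single gene of the 50 that fell, from 74.9, 63.3 and 71.5 to 52.0, 51.2 and 56.0 FPKM. All 3 activated libraries lay below all resting ones, -0.39 (SE 0.07, limma adjusted p = 0.000315).

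SnoRNP genes rose together, and the box H/ACA proteins Nhp2 and Gar1 rose most. Box H/ACA particles guide pseudouridylation. Nhp2, one of their 4 core proteins (ENSMUSG00000001056, chromosome 11, 51619735 to 51623714), went from 27.3, 26.7 and 30.1 to 79.6, 82.3 and 85.9 FPKM, 1.53 (SE 0.07, limma adjusted p = 2.09e-08). Gar1, another core protein (ENSMUSG00000028010, chromosome 3, 129824912 to 129831396), went from 24.3, 20.6 and 22.3 to 57.1, 65.5 and 62.1 FPKM, 1.42 (SE 0.08, limma adjusted p = 1.04e-07). In both genes the lowest activated library was far above the highest resting one. Nolc1, the chaperone that escorts snoRNPs (ENSMUSG00000015176, chromosome 19, 46075863 to 46085530), went from 37.4, 35.5 and 39.0 to 74.5, 86.3 and 82.4 FPKM, 1.10 (SE 0.07, limma adjusted p = 2.3e-07). The smallest rises were those of Nop10, the smallest H/ACA protein (ENSMUSG00000027133, chromosome 2, 112261926 to 112263269), from 30.3, 30.9 and 30.4 to 48.5, 49.9 and 46.9 FPKM, 0.65 (SE 0.05, limma adjusted p = 5.79e-07), and of Nop56, a scaffold of box C/D particles, which guide ribose methylation (ENSMUSG00000027405, chromosome 2, 130274430 to 130279313), from 95.8, 97.8 and 95.5 to 152, 161 and 168 FPKM, 0.73 (SE 0.05, limma adjusted p = 2.58e-07). Even for these the groups were far apart. Between them and Nolc1 lay the pseudouridine synthase Dkc1 at 0.81, the methyltransferase fibrillarin, encoded by Fbl, at 0.79, and the other C/D scaffold Nop58 at 0.99.

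Small subunit factors rose less evenly than snoRNP genes. Noc4l, which works with Nop14 in the maturation and export of the small subunit (ENSMUSG00000033294, chromosome 5, 110648418 to 110653417), went from 17.1, 18.5 and 18.2 to 45.6, 51.7 and 51.8 FPKM, 1.42 (SE 0.06, limma adjusted p = 2.66e-08). Utp4, of the subcomplex that binds the precursor first (ENSMUSG00000041438, chromosome 8, 106893636 to 106923088), went from 21.2, 21.6 and 23.3 to 40.3, 43.9 and 47.8 FPKM, 0.96 (SE 0.07, limma adjusted p = 6.18e-07). Nop14 (ENSMUSG00000036693, chromosome 5, 34638536 to 34660148) went from 20.5, 22.0 and 24.1 to 40.6, 43.7 and 43.9 FPKM, 0.92 (SE 0.08, limma adjusted p = 1.43e-06). In these 3 genes every activated library was above every resting one by a wide margin. Of the other members of the subcomplex that holds Utp4, Wdr75, Wdr43, Heatr1 and Utp15 rose by 0.39, 0.26, 0.25 and 0.19. The last of these, with an adjusted p of 0.0271 in limma, was lost without 0 h library 1 or 2 or 48 h library 2 or 3. With quantile normalization Wdr43, Heatr1 and Utp15 did not pass, with median-ratio scaling Utp15 did not, and with the GC and length correction Wdr75, Wdr43 and Utp15 did not, at 0.08, 0.01 and -0.0041. Nat10, the cytidine acetyltransferase of small subunit rRNA (ENSMUSG00000027185, chromosome 2, 103721256 to 103761270), rose by 0.13 (SE 0.04, limma adjusted p = 0.0143), from 21.9, 20.7 and 20.6 to 22.3, 23.4 and 23.9 FPKM, a step that did not pass with median-ratio scaling, with library weights or without 48 h library 3, and was -0.00 and -0.03 with quantile normalization and the GC and length correction.

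The 3 small subunit genes that did not pass had overlapping groups. Utp20, a very large scaffold protein (ENSMUSG00000004356, chromosome 10, 88746607 to 88826804), stood at 11.6, 10.5 and 12.5 FPKM and then at 12.3, 13.2 and 12.8 FPKM, 0.14 (SE 0.09, limma adjusted p = 0.151). Rrp9, a protein of the snoRNP that guides small subunit processing (ENSMUSG00000041506, chromosome 9, 106475963 to 106485424), stood at 40.1, 34.8 and 37.6 and 36.3, 40.4 and 39.0 FPKM, 0.04 (SE 0.09, limma adjusted p = 0.686). With the GC and length correction its change became -0.34 (limma adjusted p = 0.01). Tsr1, which acts late, on small subunits already in the cytoplasm (ENSMUSG00000038335, chromosome 11, 74898071 to 74909342), stood at 29.2, 29.1 and 31.9 and 27.2, 27.5 and 30.1 FPKM, -0.09 (SE 0.07, limma adjusted p = 0.245). Tsr1 passed as lower with median-ratio scaling (-0.18), quantile normalization (-0.24) and the GC and length correction (-0.35), and with that correction Utp20 passed as higher (0.25). The other small subunit genes that rose were Utp3 (0.74), Utp14a (0.62), the helicase gene Ddx10 (0.45), Rrp12 (0.45), the GTPase gene Bms1 (0.36) and Utp18 (0.34), and of these Utp18 did not pass with that correction.

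The large subunit gene Nop16 and the snoRNP gene Nhp2 shared the largest change with activation, 1.53 in both. Nop16, a nucleolar assembly factor (ENSMUSG00000025869, chromosome 13, 54584185 to 54590090), went from 11.7, 10.8 and 11.7 to 32.4, 36.7 and 35.2 FPKM, a mean of 11.4 ± 0.533 against 34.8 ± 2.13 FPKM (SD, n = 3 and 3), 1.53 (SE 0.06, limma adjusted p = 1.4e-08). The activated mean was 3.06 times the resting mean. Nop2, a cytosine methyltransferase of large subunit rRNA (ENSMUSG00000038279, chromosome 6, 125131909 to 125144753), went from 24.9, 21.9 and 25.5 to 45.2, 47.4 and 53.5 FPKM, 0.98 (SE 0.08, limma adjusted p = 1.13e-06). Pes1 (ENSMUSG00000020430, chromosome 11, 3963975 to 3980004) went from 24.7, 27.4 and 28.6 to 49.6, 55.2 and 52.0 FPKM, 0.93 (SE 0.06, limma adjusted p = 2.63e-07). Pes1 forms a complex with Bop1 and Wdr12 that large subunit processing needs, and the partners rose by 0.28 and 0.75. Bop1 did not pass with quantile normalization (0.11, limma adjusted p = 0.142) or with the GC and length correction (-0.015). Noc3l (ENSMUSG00000024999, chromosome 19, 38788128 to 38819237) had the smallest change that passed, from 10.3, 9.61 and 11.00 to 11.1, 11.7 and 11.8 FPKM, 0.15 (SE 0.06, limma adjusted p = 0.0454), and it failed in 9 of the 12 fits that each left out a library and with the replicate block (limma adjusted p = 0.0589). Gnl3, which encodes the nucleolar GTPase nucleostemin (ENSMUSG00000042354, chromosome 14, 31012433 to 31019152), stood at 66.4, 71.5 and 57.7 and 61.0, 62.0 and 60.4 FPKM, -0.09 (SE 0.08, limma adjusted p = 0.347), and passed as lower with quantile normalization (-0.24) and the GC and length correction (-0.47). It had the highest resting mean of the step after Noc2l, 65.2 against 81.2 FPKM. The other 9 large subunit genes rose by 0.24 (the helicase gene Ddx18) to 0.85 (the helicase gene Ddx56), with the GTPase genes Gnl2 and Gtpbp4 at 0.75 and 0.33. Ddx18 did not pass with quantile normalization, and with the GC and length correction it was at -0.12 and did not pass either.

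The 3 nucleolar proteins of several steps all rose, and Npm1 had the highest level of the 50 genes in every group. Npm1, which encodes nucleophosmin, a histone and ribosome chaperone (ENSMUSG00000057113, chromosome 11, 33152287 to 33163206), went from 251, 293 and 287 to 651, 699.8 and 643 FPKM, 1.26 (SE 0.07, limma adjusted p = 8.63e-08). Ncl, which encodes nucleolin, a protein that binds ribosomal DNA and the precursor RNA (ENSMUSG00000026234, chromosome 1, 86344719 to 86359400), went from 63.1, 63.4 and 69.6 to 148, 154 and 151 FPKM, 1.20 (SE 0.05, limma adjusted p = 2.74e-08). Ddx21, a helicase that links transcription with processing (ENSMUSG00000020075, chromosome 10, 62580251 to 62602281), went from 60.9, 53.4 and 62.5 to 82.3, 84.2 and 89.3 FPKM, 0.53 (SE 0.06, limma adjusted p = 2.25e-05). The groups of all 3 were apart.

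**Figure D2:**
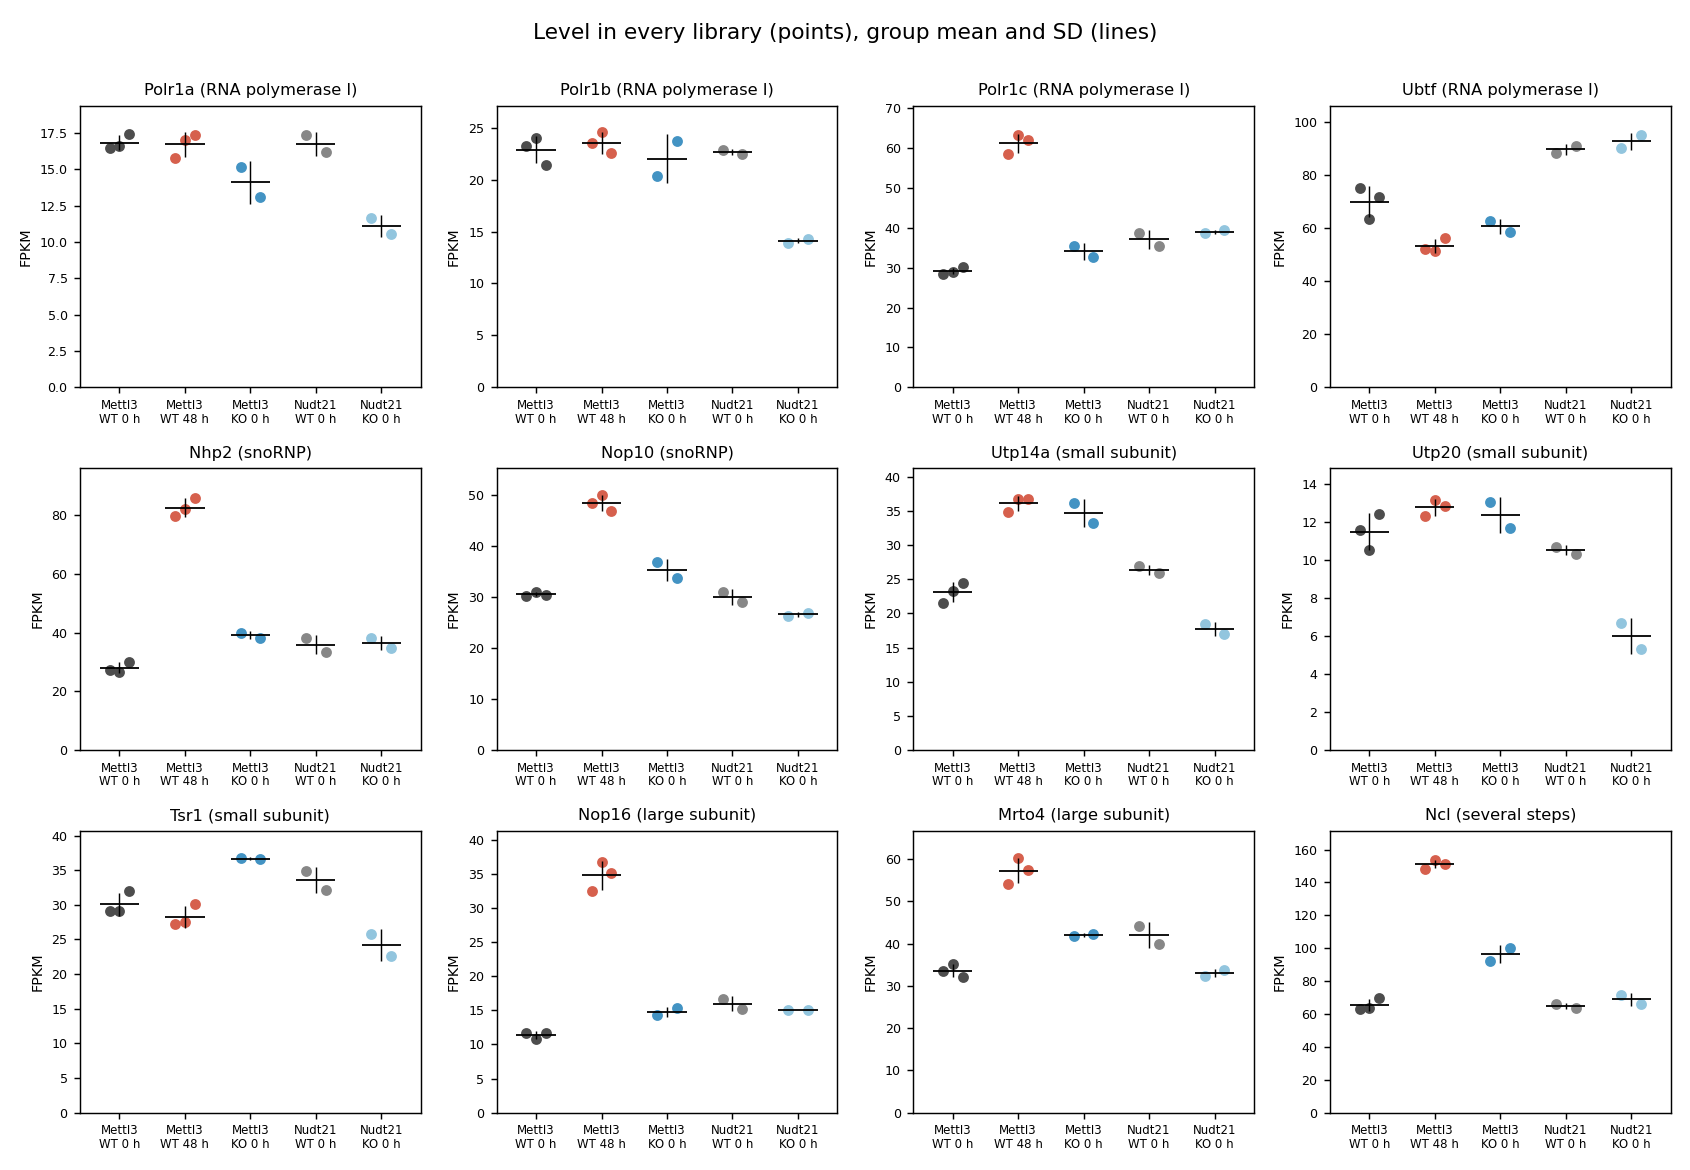
FPKM (y axis, from 0) in every library of the 5 groups (x axis) for 12 of the genes, with the mean as a horizontal and the SD as a vertical line. Polr1c, Nhp2, Nop10, Nop16, Mrto4 and Ncl stand highest at 48 h, Polr1a, Polr1b and Utp20 stand lowest in the Nudt21 knockout, and Utp14a is raised at 48 h and in the Mettl3 knockout and lowered in the Nudt21 knockout.

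Promoter sequences are shown for 3 of the genes that hold an E-box, which Myc can bind, and for Polr1c, Nhp2 and Gar1, among the genes with the largest activation changes of their steps. RefSeq's table (GRCm38.p6, windows of 250 bases before to 50 bases after the start) held 45 of the 50 genes, and Fbl, Rrp12, Bop1, Gnl2 and Npm1 were not matched. Both motifs searched were short, and a match on either strand was counted: CACGTG, the E-box bound by Myc and its relatives, whose letters read the same on both strands, and CCGGAA, the core bound by ETS factors. CACGTG was found for 8 of the 45 genes (17.8%), against 12% of the 9346 tested genes and 8.09% of all 27025 genes with a promoter in the table. CCGGAA was found for 21 (46.7%), against 33.2% and 16.7%. Of the genes with the largest activation change of their step, Polr1c and Nhp2 hold CCGGAA, Noc4l and Nop16 hold neither motif and Npm1 was not matched. The stretches below run along the gene's strand and end before or near the start, and capitals mark the motif. Rrn3 carries 2 E-boxes, and Nop2 and Utp18 carry 1 each. Apart from Polr1c and Nhp2, the genes shown were chosen after their values were seen.
Rrn3 (chr16:13780631-13780676, plus strand): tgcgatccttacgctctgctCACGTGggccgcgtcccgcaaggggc
Rrn3 (chr16:13780464-13780509, plus strand): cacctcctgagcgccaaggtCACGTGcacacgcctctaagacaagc
Nop2 (chr6:125131803-125131848, plus strand): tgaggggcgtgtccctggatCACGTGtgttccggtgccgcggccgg
Utp18 (chr11:93885767-93885806, minus strand): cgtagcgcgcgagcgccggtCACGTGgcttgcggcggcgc
Polr1c (chr17:46248062-46248107, minus strand): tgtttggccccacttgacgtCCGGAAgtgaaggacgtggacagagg
Nhp2 (chr11:51619730-51619772, plus strand): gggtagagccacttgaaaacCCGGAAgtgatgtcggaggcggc
Gar1 (chr3:129831411-129831456, minus strand): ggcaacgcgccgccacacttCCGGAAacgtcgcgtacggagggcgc
A match describes letters in this window and says nothing of binding. The changes of the first 3 genes with activation were 0.23, 0.98 and 0.34, and those of the last 3 were 1.04, 1.53 and 1.42. In Gar1 the reverse match TTCCGG starts 2 bases earlier and overlaps the one shown. The stretch of Nop2 also holds that reverse match, in lower case, after its E-box.

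Some of the genes also carry snoRNA genes in their introns, the RNAs with which the snoRNP proteins assemble. By GENCODE M21, 7 of the 50 hold 21 snoRNA genes: Nop56 holds 5, Nop58 4, Wdr43, Gnl3 and Ncl 3 each, Tsr1 2 and Dkc1 1. With activation 5 of these 7 hosts rose (median 0.73), and 37 of the other 43 genes rose (median 0.55). Of all tested genes 43.6% rose (median 0.07). The hosts that did not pass were Tsr1 and Gnl3.

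The median change of 92 further ribosome biogenesis genes with activation was 0.42. Of them 58 (63.0%) rose and 16 (17.4%) fell, against 43.6% and 34.9% of all tested genes. All 10 snoRNP assembly genes rose (median 1.17), as did 5 of 10 polymerase I genes (3 fell), 21 of 33 small subunit genes (5 fell) and 22 of 39 large subunit genes (8 fell). The largest rises were those of Naf1, an assembly factor of H/ACA particles, from 4.29 ± 0.218 to 21.0 ± 1.03 FPKM (2.05, SE 0.08, limma adjusted p = 1.34e-08), and of Ruvbl2, an ATPase that helps box C/D particles to assemble, from 27.6 ± 0.818 to 108 ± 6.19 FPKM (1.92, SE 0.06, limma adjusted p = 2.94e-09). The largest falls were those of Taf1c, a subunit of the selectivity factor of polymerase I, from 20.6 ± 0.932 to 8.20 ± 0.488 FPKM (-1.23, SE 0.06, limma adjusted p = 2.77e-08), and of Mdn1, the giant ATPase that strips factors from the large subunit, from 26.0 ± 2.98 to 10.8 ± 0.414 FPKM (-1.19, SE 0.12, limma adjusted p = 8.99e-06; SD, n = 3 and 3 in all 4 genes).

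In resting cells without Mettl3 a minority of the genes changed, about as large a share as over all genes. Of the 50 genes 36 did not pass, and of all 12511 tested genes 8901 did not. In the Mettl3 knockout 12 of the 50 genes were higher and 2 lower than in wild type at 0 h (limma, adjusted p under 0.05), where 16.8% of all tested genes were higher and 12% lower. The median change was 0.10 over the 50 genes and 0.04 over all genes. Over the 50 genes that median was 0.02 with quantile normalization and -0.03 with the GC and length correction, where the median of all genes was -0.06 and -0.07. By step, 1 of 6 polymerase I genes rose and 1 fell, 2 of 8 snoRNP genes rose, 4 of 17 small subunit genes rose and 1 fell, 3 of 16 large subunit genes rose, and 2 of 3 genes of several steps rose. Knockout library 1 held 34 of the 50 genes above the wild type mean and library 3 held 37. The groups did not overlap for 23 genes on the higher and 7 on the lower side, and for 27.4% and 21.2% of all tested genes. The wild type libraries at 0 h are also the controls of the activation comparison, so the results of both comparisons are set side by side only.

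The Mettl3 knockout counts moved between fits. Without knockout library 1 the counts were 10 higher and 2 lower, without knockout library 3 they were 9 and 1, and without wild type library 1 they were 8 and 1. With a weight for each library 3 were higher and 1 lower, and with only the groups compared in the fit 5 and 1. With median-ratio scaling they were 9 and 3, with quantile normalization 10 and 5 and with the GC and length correction 5 and 4. Over all genes the counts were 1741 and 1915, 1512 and 2537, and 1314 and 2616 (of 12496 genes), in the same order. Myeloid markers summed to 3.20 to 5.21 FPKM in the wild type and to 1.37 and 192 FPKM in the knockout libraries, erythroid markers to 10.5 to 19.2 against 1.97 and 177 FPKM, and the activated T cell markers to 8.06 to 8.99 against 14.99 and 68.9 FPKM. CD8 T and NK markers summed to 24.3 to 29.0 FPKM in the wild type and to 32.0 and 127 FPKM in the knockout libraries. B cell markers summed to 2.71 to 5.29 against 2.36 and 21.7 FPKM. No marker of these lists was at 0 in both knockout libraries, and their part in the result was not tested.

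Nucleolin and several small and large subunit factors rose in the Mettl3 knockout. Ncl stood at 63.1, 63.4 and 69.6 FPKM in wild type and at 92.4 and 100.3 FPKM in the knockout libraries, 0.55 (SE 0.06, limma adjusted p = 0.000345). Utp14a, which activates the helicase that dismantles the small subunit processome (ENSMUSG00000063785, chromosome X, 48256862 to 48282453), went from 21.5, 23.3 and 24.5 to 36.2 and 33.3 FPKM, 0.57 (SE 0.07, limma adjusted p = 0.000442). Utp3, another processome protein (ENSMUSG00000070697, chromosome 5, 88554462 to 88556090), went from 29.0, 27.0 and 33.6 to 52.8 and 45.5 FPKM, 0.70 (SE 0.09, limma adjusted p = 0.000822). In all 3 genes both knockout libraries were above every wild type library, by a wide margin. Ncl and Utp14a kept the call in every fit that was run, and Utp3 lost it in 1, with the replicate block and the GC and length correction together. Their knockout means at 0 h, 96.3, 34.7 and 49.2 FPKM, stood beside 151, 36.1 and 50.5 FPKM in activated wild type cells. Utp3 had a mean of 42.3 FPKM in the resting wild type of the Nudt21 set. Of other genes that rose, Nhp2, Nop16 and Noc4l had 39.2, 14.8 and 21.1 FPKM beside 82.6, 34.8 and 49.7 FPKM. Tsr1 had 36.7 FPKM beside 28.2 FPKM.

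Other genes that rose moved less. Nhp2 went from 27.3, 26.7 and 30.1 to 40.0 and 38.3 FPKM, 0.47 (SE 0.07, limma adjusted p = 0.00189), and its partner Nop10 from 30.3, 30.9 and 30.4 to 36.8 and 33.8 FPKM, 0.20 (SE 0.05, limma adjusted p = 0.019). The other core H/ACA proteins, Gar1 at 0.13 and Dkc1 at -0.02, did not pass. Nop2 went from 24.9, 21.9 and 25.5 to 34.5 and 34.8 FPKM, 0.51 (SE 0.09, limma adjusted p = 0.00274). Nop16 went from 11.7, 10.8 and 11.7 to 14.3 and 15.3 FPKM, 0.35 (SE 0.07, limma adjusted p = 0.00518). Mrto4, a large subunit factor that holds the place of a stalk protein during assembly (ENSMUSG00000028741, chromosome 4, 139347435 to 139352576), went from 33.6, 35.3 and 32.1 to 41.7 and 42.4 FPKM, 0.31 (SE 0.06, limma adjusted p = 0.00591). In these 5 genes no knockout library fell within the wild type range, and of their calls only that of Nop10 was lost to a left-out library (wild type 1 or knockout 1). With library weights none of the 5 passed, and with only the compared groups in the fit Nop10, Nop16 and Mrto4 did not. With the GC and length correction Nhp2, Nop16 and Mrto4, at 0.22, 0.15 and 0.10, did not pass either, nor did Nop10, which also failed with median-ratio scaling and quantile normalization.

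Tsr1, at 36.8 and 36.5 FPKM in the knockout against 29.2, 29.1 and 31.9 FPKM, rose by 0.28 (SE 0.07, limma adjusted p = 0.0189), although it had not passed with activation. Ddx21 went from 60.9, 53.4 and 62.5 to 71.3 and 73.6 FPKM, 0.30 (SE 0.07, limma adjusted p = 0.0117). Noc4l went from 17.1, 18.5 and 18.2 to 20.1 and 22.1 FPKM, 0.22 (SE 0.07, limma adjusted p = 0.0417), the weakest of the higher calls, lost in 10 of the 12 fits without 1 library. The groups of these 3 genes did not overlap either, but Tsr1 lost its call without wild type library 1 or knockout library 3, and Ddx21 without knockout library 3. With library weights, and with only the compared groups in the fit, none of these 3 passed, and with the GC and length correction Tsr1 and Noc4l did not. With that correction Nop10 was at -0.09 and Polr1c at -0.00 in this comparison.

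Among the polymerase I genes Polr1c rose, from 28.5, 29.0 and 30.1 to 35.6 and 32.6 FPKM, 0.22 (SE 0.06, limma adjusted p = 0.022), while Polr1a fell, from 16.4, 16.6 and 17.4 to 15.1 and 13.1 FPKM, -0.24 (SE 0.08, limma adjusted p = 0.0373). Each library of the knockout lay outside the wild type range in both genes, but Polr1a lost its call in 7 of the 12 fits without 1 library, and Polr1c without wild type library 1 or knockout library 1. With the replicate block neither passed (limma adjusted p = 0.0909 for Polr1a and 0.0658 for Polr1c). Neither passed with library weights, with only the compared groups or with the GC and length correction. Ubtf stood at 62.5 and 58.6 FPKM, below all 3 wild type libraries, and did not pass (-0.20, SE 0.07, limma adjusted p = 0.0654), although it did with median-ratio scaling (-0.25), with quantile normalization (-0.25) and with the replicate block (-0.25). Rrn3 stood at 18.9 and 19.4 FPKM (0.17, SE 0.08, limma adjusted p = 0.113), Polr1b at 20.4 and 23.7 FPKM (-0.06, SE 0.07, limma adjusted p = 0.578) and Polr1e at 12.7 and 11.8 FPKM (-0.11, SE 0.14, limma adjusted p = 0.595). Of these 3, Rrn3 lay above all wild type libraries and the others overlapped them.

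Nat10 was the other gene that fell without Mettl3. It stood at 21.9, 20.7 and 20.6 FPKM in wild type and at 16.5 and 16.6 FPKM in the knockout, 78.5% of the wild type mean, -0.33 (SE 0.05, limma adjusted p = 0.0012), and it kept the call in every fit. The abundant nucleolar genes Npm1 and Fbl did not pass. Npm1 stood at 308 and 316 FPKM (0.17, SE 0.08, limma adjusted p = 0.118), above all wild type libraries, and Fbl at 103 and 97.0 FPKM against 105, 101 and 101 FPKM (-0.03, SE 0.05, limma adjusted p = 0.66).

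The median change of the 92 further genes in the Mettl3 knockout was 0.11. Of them 26 (28.3%) rose and 1 (1.09%) fell, against 16.8% and 12% of all tested genes. They were 2 of 10 polymerase I genes, 4 of 10 snoRNP genes, 9 of 33 small subunit genes and 11 of 39 large subunit genes on the higher side. Bysl, an assembly factor of the small subunit, went from 10.05, 7.81 and 11.7 to 17.4 and 16.1 FPKM, 0.73 (SE 0.15, limma adjusted p = 0.007). Polr1d, another subunit shared by polymerases I and III, went from 59.7, 56.8 and 55.1 to 99.0 and 84.9 FPKM, 0.67 (SE 0.09, limma adjusted p = 0.000742). Neither overlapped the wild type. Tcof1, which encodes treacle, a partner of Ubtf at ribosomal DNA, was the 1 gene that fell, from 70.2, 66.4 and 70.9 to 62.5 and 55.5 FPKM, -0.23 (SE 0.06, limma adjusted p = 0.0202).

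In resting cells without Nudt21 most of the genes that changed were lower. In the Nudt21 knockout 23 of the 50 genes were lower and 2 higher than in the wild type of that set (limma, adjusted p under 0.05), where 19.0% of all tested genes were lower and 8.73% higher. The median change was -0.20 over the 50 genes and -0.05 over all genes. Small subunit genes took 10 of the 23, out of 17, and 1 of them rose. Large subunit genes took 8 of 16, and 1 rose. Of the 8 snoRNP genes 3 fell, and of the 6 polymerase I genes 2 fell. None of the 3 genes of several steps passed, nor did any at an unadjusted p under 0.05 in limma (0 of 3). Knockout library 1 held 40 of the 50 genes below the wild type mean and library 2 held 44. The summed level of the 50 genes was 2037 and 1908 FPKM with Nudt21 and 1810 and 1753 FPKM without it. The groups did not overlap for 34 genes on the lower and 3 on the higher side, and for 44.2% and 31.1% of all tested genes.

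With 2 libraries a group, single libraries decided part of these calls: 10 genes were lower without wild type library 1, 12 without knockout library 2, 17 without wild type library 2 and 22 without knockout library 1, and none was higher without either wild type library or knockout library 2. Scaling moved the count to 20 lower with median-ratio scaling, 21 with quantile normalization and 20 with the GC and length correction, each with 2 higher, and to 16 with that correction and the replicate block. Over all tested genes the lower counts were 1579, 1721, 1877 and 1324, in the same order. CD4 T cell markers summed to 3850 and 4422 FPKM in the knockout libraries against 2853 and 3023 FPKM in wild type, lowest first. Marker sums of other cells were also higher in the knockout, with 93.7 and 144 FPKM of 4 myeloid markers against 40.4 and 17.1 FPKM in wild type, 67.1 and 113 against 34.3 and 22.0 FPKM of 4 B cell markers, 85.2 and 77.8 against 33.2 and 25.9 FPKM of 4 CD8 T and NK markers, and 363 and 330 against 240 and 189 FPKM of 3 erythroid markers. The activated T cell markers summed to 19.3 and 16.8 against 7.30 and 8.09 FPKM. No marker of these lists was at 0 in both libraries of either group, and their part in the result was not tested.

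The core subunits of RNA polymerase I fell in the Nudt21 knockout. Polr1a stood at 17.3 and 16.2 FPKM in wild type and at 11.6 and 10.6 FPKM in the knockout, -0.55 (SE 0.08, limma adjusted p = 0.00182), and Polr1b at 22.9 and 22.5 against 13.9 and 14.3 FPKM, -0.64 (SE 0.08, limma adjusted p = 0.000756). Both knockout libraries lay far below both wild type libraries, at 66.3% and 62.4% of the wild type mean, and both calls held in every fit that was run. Polr1e was also lower in both knockout libraries, 10.6 and 10.4 against 14.6 and 12.4 FPKM, without passing (-0.33, SE 0.16, limma adjusted p = 0.148), although it passed with only the compared groups in the fit. The other 3 genes were close to the wild type. Polr1c stood at 38.6 and 39.4 against 38.8 and 35.5 FPKM (0.07, SE 0.06, limma adjusted p = 0.443), Rrn3 at 16.9 and 15.3 against 17.7 and 16.1 FPKM (-0.07, SE 0.08, limma adjusted p = 0.593), and Ubtf at 90.1 and 94.9 against 88.1 and 90.9 FPKM (0.05, SE 0.08, limma adjusted p = 0.698). The libraries of these 3 genes overlapped.

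Among the snoRNP genes Gar1, Nop58 and Dkc1 fell. Gar1 went from 32.9 and 31.1 to 24.5 and 21.9 FPKM, -0.45 (SE 0.10, limma adjusted p = 0.00935). Nop58 (ENSMUSG00000026020, chromosome 1, 59684971 to 59719044) went from 15.1 and 14.6 to 11.9 and 12.5 FPKM, -0.26 (SE 0.05, limma adjusted p = 0.00715). Dkc1 (ENSMUSG00000031403, chromosome X, 75095854 to 75109777) went from 34.4 and 30.6 to 26.1 and 23.5 FPKM, -0.38 (SE 0.12, limma adjusted p = 0.0394). The groups were apart in all 3, but Dkc1 lost its call in 8 of the 12 fits without 1 library, Gar1 without wild type library 1 or knockout library 2, and Nop58 without wild type library 1. Neither Nop58 nor Dkc1 passed with median-ratio scaling or quantile normalization, Nop58 did not with the GC and length correction (-0.09), and Dkc1 did not without a filter on low values. Their partners in the same particles did not pass: Nhp2 was at 0.03 and Nop10 at -0.17 beside Gar1 and Dkc1, and Nop56 at -0.14 beside Nop58. Fbl (ENSMUSG00000046865, chromosome 7, 28169710 to 28179269) stood at 111 and 113 FPKM in the knockout against 117 and 111 FPKM (-0.02, SE 0.06, limma adjusted p = 0.788).

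Small subunit factors held the largest single fall, that of Utp20, and the next largest was that of the polymerase I gene Polr1b (-0.64). Utp20 went from 10.7 and 10.4 to 6.68 and 5.33 FPKM, 57.0% of the wild type mean, -0.73 (SE 0.10, limma adjusted p = 0.00152). Utp14a went from 26.9 and 25.9 to 18.5 and 17.0 FPKM, -0.55 (SE 0.07, limma adjusted p = 0.000978). Nat10 went from 24.2 and 24.2 to 18.8 and 18.6 FPKM, -0.35 (SE 0.05, limma adjusted p = 0.00164), and Tsr1 from 34.9 and 32.2 to 25.8 and 22.6 FPKM, -0.46 (SE 0.08, limma adjusted p = 0.00357). No knockout library of these 4 genes reached the wild type range, and all 4 calls held in every fit. Rrp12, an export factor, was at -0.61. In the subcomplex that binds the precursor first, Heatr1, Wdr75, Wdr43 and Utp15 fell, with changes of -0.42, -0.43, -0.34 and -0.33, while Utp4 was at -0.18 and did not pass. Nop14 fell too, at -0.41, and its partner Noc4l did not pass, at -0.07. Wdr75 and Nop14 lost their calls without wild type library 1 or knockout library 2, and Wdr43 and Utp15 also without wild type library 2. Utp15 did not pass with quantile normalization either. Utp3 alone rose, from 43.0 and 41.6 to 54.7 and 53.1 FPKM, 0.34 (SE 0.10, limma adjusted p = 0.033). It lost that call when any 1 of the 4 libraries of this set was left out, without a filter on low values, with the GC and length correction and with the replicate block (limma adjusted p = 0.0653).

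Of the large subunit factors Gnl3 fell most, from 60.8 and 60.6 to 43.3 and 36.7 FPKM, -0.59 (SE 0.10, limma adjusted p = 0.00275). Rrp1b, a nucleolar protein related to a yeast processing factor (ENSMUSG00000058392, chromosome 17, 32036100 to 32062865), went from 21.5 and 20.7 to 15.5 and 15.3 FPKM, -0.43 (SE 0.08, limma adjusted p = 0.00536). Mrto4 went from 44.2 and 39.9 to 32.4 and 33.8 FPKM, -0.33 (SE 0.07, limma adjusted p = 0.0076), and Ddx18 (ENSMUSG00000001674, chromosome 1, 121553835 to 121567989) from 46.1 and 40.9 to 34.7 and 33.3 FPKM, -0.34 (SE 0.08, limma adjusted p = 0.00955). The groups were apart in these 4 genes, but Mrto4 lost its call without wild type library 1, and Ddx18 without that library or knockout library 2. The other 4 that fell, Gnl2, Gtpbp4, Noc3l and Ebna1bp2, lay between -0.32 and -0.27. Gnl2 lost its call without wild type library 1 or knockout library 2, and the other 3 also without wild type library 2, and Noc3l did not pass with the replicate block (limma adjusted p = 0.0512). Noc3l also failed with both scalings, and Noc3l and Gtpbp4 with the GC and length correction. Wdr12, the complex partner of Pes1 and Bop1 (ENSMUSG00000026019, chromosome 1, 60069785 to 60098645), was the 1 that rose, from 6.77 and 6.61 to 8.39 and 10.04 FPKM, 0.41 (SE 0.09, limma adjusted p = 0.0102), with both knockout libraries above the wild type, and lost the call without wild type library 1 or 2 or knockout library 2. Its partners did not pass, Pes1 at -0.12 and Bop1 at 0.14. Nucleolin and nucleophosmin did not pass either. Ncl stood at 71.7 and 66.2 FPKM in the knockout against 66.2 and 63.7 FPKM (0.08, SE 0.07, limma adjusted p = 0.38; 0.23 and past the threshold with the GC and length correction), and Npm1 at 243 and 233 FPKM against 244 and 228 FPKM (0.01, SE 0.08, limma adjusted p = 0.945).

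Transcript length was set beside the changes as a description, with no test. FPKM divide by a length for each gene that is not given in the sources used here. Fewer transcripts and shorter transcripts therefore cannot be told apart in a fall. The median length was 3450 bases over the 23 genes that fell in the Nudt21 knockout and 2597 bases over the 25 that did not pass. All tested genes with a length were split into 3 classes of equal size by their longest annotated transcript. In the long class (3701 bases and up) 11 of the 16 ribosome biogenesis genes fell, in the middle class 9 of 21 and in the short class (2020 bases and down) 3 of 13. Over all tested genes the shares that fell were 23.1%, 20.4% and 13.7%. The median change of the ribosome biogenesis genes was -0.32, -0.20 and -0.08 in the long, middle and short classes, against -0.10, -0.06 and 0.02 over all genes. The rank correlation of the change with length was -0.23 over the 50 genes and -0.19 over 12496 genes, given as a description, since genes share libraries. The same correlation was -0.41 over the 50 genes and -0.10 over all genes with activation, and -0.22 and -0.15 in the Mettl3 knockout. Wdr12 and Ncl, with transcripts of 10012 and 8202 bases, stood at 0.41 and 0.08 in the Nudt21 knockout.

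**Figure D3:**
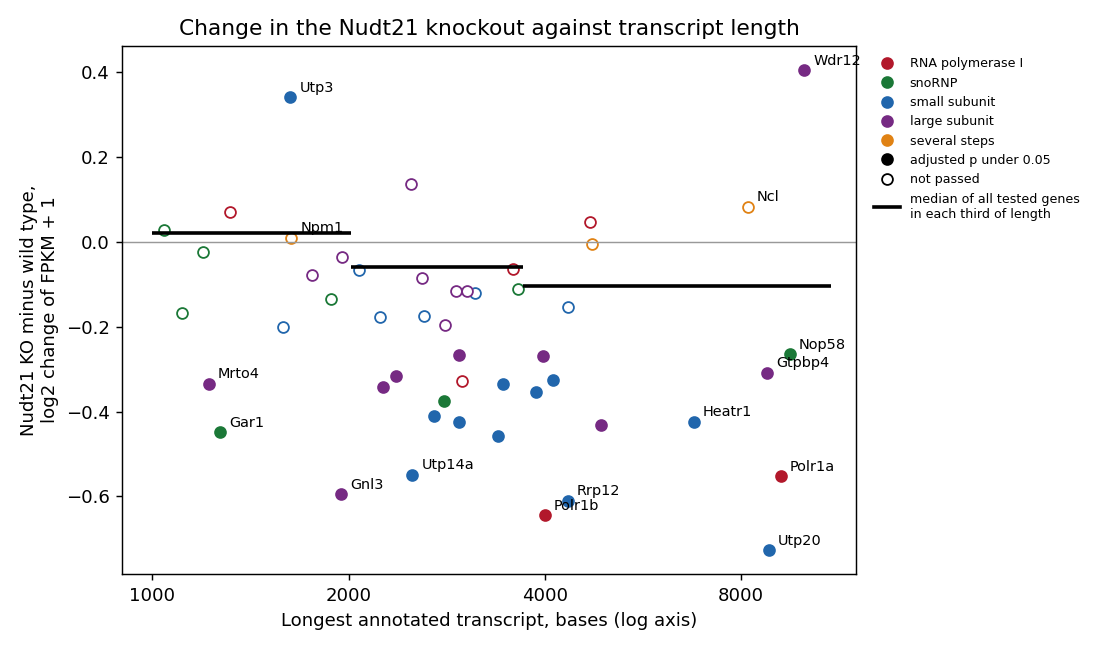
Log2 change of FPKM + 1 in the Nudt21 knockout (y axis) against the length of the longest annotated transcript (x axis, log scale) for each of the 50 genes, filled where the change passed, with the median of all tested genes in each of 3 length classes as a black line. In the long class 11 of 16 points are filled below 0, and Wdr12 and Utp3 are the filled points above 0.

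The median change of the 92 further genes in the Nudt21 knockout was -0.15. Of them 29 (31.5%) fell and 1 (1.09%) rose, against 19.0% and 8.73% of all tested genes. The falls were spread over the steps, with 2 of 10 polymerase I genes, 3 of 10 snoRNP genes, 12 of 33 small subunit genes and 12 of 39 large subunit genes. Mdn1 went from 23.0 and 25.3 to 15.6 and 12.2 FPKM, -0.76 (SE 0.15, limma adjusted p = 0.00629), and Sdad1, an export factor of the large subunit, from 22.2 and 21.1 to 13.4 and 12.4 FPKM, -0.70 (SE 0.07, limma adjusted p = 0.000265). Neither overlapped the wild type. Taf1c was the 1 gene that rose, from 27.1 and 25.7 to 30.7 and 30.8 FPKM, 0.21 (SE 0.07, limma adjusted p = 0.0441).

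Activation and the Nudt21 knockout share no library, so their calls were set against each other. Of the 42 genes that rose with activation, 18 (42.9%) fell in the Nudt21 knockout and 2 (4.76%) rose, and these 18 were 78.3% of the genes that fell. Of the 50 genes 46% fell in the knockout and 84% rose with activation. Over all tested genes 17.6% of those that rose with activation fell in the knockout, and these were 40.4% of the genes that fell. Of the 7 genes that did not pass with activation, 5 fell in the knockout: Polr1a, Polr1b, Utp20, Tsr1 and Gnl3. Over all tested genes 15.6% of those that did not pass with activation fell. These counts were made after the values had been seen and carry no test.

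The changes in the 2 knockouts differed for 24 of the 50 genes, in each case with the Mettl3 change above the Nudt21 change (limma, interaction contrast, adjusted p under 0.05), where 17.8% of all tested genes differed in that direction and 7.44% in the other. None of the 50 differed in the other direction by limma, and 1 did at an unadjusted p under 0.05, Ubtf. The median difference was 0.31 over the 50 genes and 0.12 over all genes. Each knockout was measured in its own set, so a difference between the sets cannot be told apart from one between the lost genes. Resting wild type means of the Mettl3 and Nudt21 sets were 65.4 and 65.0 FPKM for Ncl and 33.6 and 42.1 FPKM for Mrto4. Erythroid markers summed to 10.5 to 19.2 FPKM in the former wild type and to 189 to 240 FPKM in the latter. By step the 24 were 1 of 6 polymerase I genes, 4 of 8 snoRNP genes, 9 of 17 small subunit genes, 9 of 16 large subunit genes and 1 of 3 genes of several steps. The count was 14 with median-ratio scaling, with 1 in the other direction, 18 with quantile normalization, again with 1 in the other direction, 12 with the GC and length correction, 12 with library weights, 11 without Nudt21 wild type library 1 and 12 without Nudt21 knockout library 2.

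Utp14a differed most, with a difference of 1.12 (SE 0.10, limma adjusted p = 0.000247): it rose by 0.57 in the Mettl3 knockout and changed by -0.55 in the Nudt21 knockout. It lies on the X chromosome, and GENCODE lists an opposite-strand transcript over it. Mrto4 and Tsr1 were the other genes that passed in both knockouts in opposite directions, with differences of 0.65 (SE 0.09, limma adjusted p = 0.00188) and 0.74 (SE 0.11, limma adjusted p = 0.00199). Rrp12 (ENSMUSG00000035049, chromosome 19, 41862851 to 41896173) measured 13.1, 11.8 and 14.5 FPKM without and 16.0 and 16.3 FPKM with the loss of Mettl3, and 17.0 and 15.2 FPKM without and 10.5 and 9.88 FPKM with the loss of Nudt21, a difference of 0.89 (SE 0.15, limma adjusted p = 0.00322). Its knockout libraries were the higher ones in the Mettl3 set and the lower ones in the Nudt21 set. Utp20 and Polr1b, which overlapped the wild type in the Mettl3 set, differed by 0.82 (SE 0.14, limma adjusted p = 0.00379) and 0.59 (SE 0.11, limma adjusted p = 0.00481).

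Ncl differed by 0.47 (SE 0.09, limma adjusted p = 0.00605), with a change of 0.55 in the Mettl3 knockout and 0.08 in the Nudt21 knockout. Rrp1b, at 19.8 and 22.1 FPKM in Mettl3 knockout cells against 18.8, 17.6 and 20.1 FPKM in wild type, differed by 0.58 (SE 0.11, limma adjusted p = 0.00643). Heatr1 (ENSMUSG00000050244, chromosome 13, 12395027 to 12440289) stood at 22.0 and 22.8 against 21.4, 19.3 and 22.1 FPKM in the Mettl3 set and at 15.7 and 13.6 against 20.6 and 19.3 FPKM in the Nudt21 set, a difference of 0.52 (SE 0.11, limma adjusted p = 0.00856). In both of these genes the Mettl3 groups overlapped and the Nudt21 groups did not. Nop10 differed by 0.37 (SE 0.08, limma adjusted p = 0.00901). The calls of Utp14a, Mrto4, Tsr1, Rrp12, Utp20, Polr1b, Ncl, Rrp1b and Heatr1 held in every fit that was run, while that of Nop10 was lost with both scalings and with the GC and length correction. Among the other calls, that of Nop56 was lost with the replicate block (limma adjusted p = 0.0645), with which Noc4l passed (0.32, limma adjusted p = 0.0442).

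Of the genes that passed in both knockouts, 3 had the same direction. Utp3 rose in both (0.70 and 0.34), and Polr1a (-0.24 and -0.55) and Nat10 (-0.33 and -0.35) fell in both. Of the 50 genes, 17 passed in neither knockout, among them Fbl, Npm1, Nop56, Pes1 and Bop1. Of the 92 further genes 39 (42.4%) differed with the Mettl3 change above, against 17.8% of all tested genes. They were led by Rrp15 (1.07, SE 0.09, limma adjusted p = 0.000181) and Bysl (0.97, SE 0.23, limma adjusted p = 0.0135). Tcof1 was the 1 that differed in the other direction (-0.31, SE 0.09, limma adjusted p = 0.031), against 7.44% of all tested genes. Rrp15, a large subunit factor, stood at 19.7 ± 0.768 FPKM against 12.8 ± 0.389 FPKM in the Mettl3 set and at 11.6 ± 0.0870 FPKM against 16.6 ± 0.675 FPKM in the Nudt21 set (mean ± SD, n = 2, 3, 2 and 2).

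**Figure D4:**
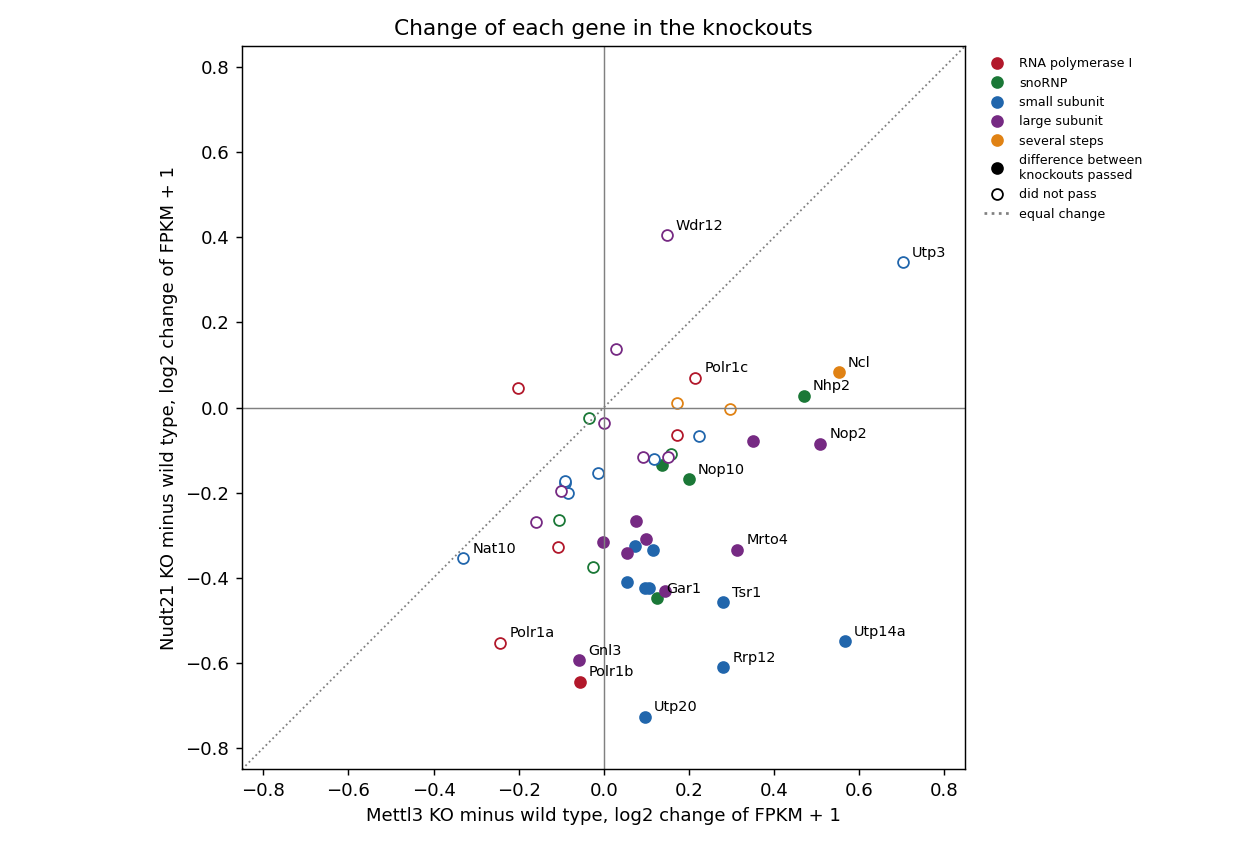
Log2 change of FPKM + 1 of each of the 50 genes in the Mettl3 knockout (x axis) and the Nudt21 knockout (y axis), each against its own wild type at 0 h; filled points differed between the knockouts, and the dotted line marks equal change. All 24 filled points lie below the dotted line, with Utp14a, Rrp12 and Utp20 farthest from it.

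Counting may blur some of these genes. By GENCODE, 18 of the 50 overlap a gene on the opposite strand, and whether the authors counted by strand is not given in the sources used here, so reads of the partners cannot be told apart for Polr1a, Polr1e, Nop56, Dkc1, Nhp2, Utp14a, Wdr43, Heatr1, Rrp9, Nop14, Tsr1, Wdr12, Bop1, Pes1, Gnl2, Gnl3, Noc2l and Rrp1b. Gtpbp4 has 7 and Mrto4 2 pseudogenes that carry its name, whose reads may be shared with it. Pseudogenes listed under other names were not looked for, so the remaining genes may have some as well.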

How the data were processed

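Sorted naive CD4+ T cells were sequenced as paired ends, per the labels' protocols, and each of the 12 libraries was placed in 1 of 5 groups by its title. The deposited table gives FPKM per gene, made by the authors; the submitters' processing notes name Bowtie and mm10, without version or role, and the tool that made FPKM, its annotation and its strand setting are not given in the sources used here. Low values did not fall on steps of single reads, so depth is unknown and no count test or counting interval was used. Of the 32285 genes, 12511 reached 1 FPKM in 2 libraries and were tested.

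Values were analysed as log2(FPKM + 1), a pseudocount of 1 FPKM that understates the change of low genes. A model with 5 group means over the 12 libraries was fitted by limma 3.58.1 (R 4.3.3), with a trended empirical Bayes prior and 7 residual degrees of freedom, and p-values were adjusted by Benjamini-Hochberg over the 12511 genes of a comparison, with a threshold of 0.05. The fit was run on simulated data with known changes, in which each gene had the same spread in every group. The Mettl3 knockout libraries stood apart from each other, so that simulation does not describe their spread. Titles number the libraries, and deviations of same-numbered wild type libraries at 0 h and 48 h correlated at 0.26, 0.23 and 0.32. Those of same-numbered wild type and knockout libraries of the Mettl3 set at 0 h correlated at 0.14 and 0.22. The labels do not say what a shared number stands for, and the main fit used no pairing. A replicate block was therefore run as an alternative.

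The members and lists were chosen with earlier results of these data known. By the rule for named genes, full values were given in activation for the 3 largest and 2 smallest changes of a step and every gene that fell or did not pass, in each knockout for up to 4 passing genes per step and direction with the smallest p, all polymerase I genes, Ncl, Npm1 and Fbl, and in the difference for the 10 genes of smallest p. Of the 92 further genes, the 2 largest changes in each direction among those that passed were named. Lengths and positions came from GENCODE M21, which holds 12496 of the tested genes with a length, and promoters from RefSeq. Alternatives were pseudocounts of 0.1 and 0.5 FPKM, no filter or one of 5 FPKM, median-ratio and quantile scaling, the replicate block, library weights, only the compared groups and each library left out; a GC and length correction and a crossed block were added after seeing the data. Plots used Python 3.11.15 with matplotlib 3.10.9.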

Additional observations from a re-analysis of the deposited data

Results flagged for a closer look

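The effects of the 2 knockouts, each against its own wild type, differed for 24 of the 50 genes by the interaction contrast in limma (adjusted p under 0.05), and in all 24 the log2 change in the Mettl3 knockout was the higher one. In the order of the report's steps, the difference of the log2 changes was 0.59 for the polymerase I core subunit Polr1b. Among the snoRNP genes it was 0.57 for Gar1, 0.44 for Nhp2, 0.37 for Nop10 and 0.27 for Nop56. Among the small subunit genes it was 1.12 for Utp14a, 0.89 for Rrp12, 0.82 for Utp20, 0.74 for Tsr1, 0.53 for Wdr75, 0.52 for Heatr1, 0.46 for Nop14, 0.45 for Wdr43 and 0.40 for Utp15. Among the large subunit genes it was 0.65 for Mrto4, 0.59 for Nop2, 0.58 for Rrp1b, 0.54 for Gnl3, 0.43 for Nop16, 0.41 for Gtpbp4, 0.40 for Ddx18, 0.34 for Ebna1bp2 and 0.31 for Gnl2. Nucleolin, encoded by Ncl, had 0.47. Of these 24 calls, 11 held when any single library was left out and 9 held in every fit that was run. As each knockout has its own set, set and lost gene cannot be told apart in these differences.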

How the results depend on the processing

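The direction of the member counts (more higher than lower in activation and the Mettl3 knockout, more lower in the Nudt21 knockout) held in every alternative that was run. Leaving out 1 library at a time gave 39 to 42 higher and 1 to 2 lower in activation, 8 to 14 and 1 to 2 in the Mettl3 knockout, 0 to 2 and 10 to 24 in the Nudt21 knockout, and 11 to 27 and 0 to 1 in the difference. A lone library left in a group is then assumed to vary like the others. Of the calls, 40 of 43 in activation, 8 of 14 in the Mettl3 knockout, 10 of 25 in the Nudt21 knockout and 11 of 24 in the difference held whichever library was left out, and 33, 3, 10 and 9 held in all fits. The pseudocounts and the stricter filter moved no count.

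Counts that moved by over 1.5 times were these. Without a filter the Mettl3 knockout had 1 lower and the Nudt21 knockout 1 higher. With median-ratio scaling activation had 2 lower and the difference 14 higher and 1 lower. With quantile normalization activation had 4 lower, the Mettl3 knockout 5 lower and the difference 1 lower. With library weights the Mettl3 knockout had 3 higher and 1 lower and the difference 12 higher, and with only the compared groups the Mettl3 knockout had 5 higher and 1 lower. With the GC and length correction activation had 5 lower, the Mettl3 knockout 5 higher and 4 lower and the difference 12 higher, and with the replicate block added to it activation had 5 lower, the Mettl3 knockout 3 higher and the difference 9 higher. The cause was not tested. Over all genes the Mettl3 knockout had 748 higher and 346 lower with library weights and 535 and 274 with only the compared groups. With the GC and length correction it had 1314 and 2616. The replicate block alone gave 41 higher and 1 lower in activation, 11 and 2 in the Mettl3 knockout, 1 and 22 in the Nudt21 knockout and 24 and 0 in the difference, and it changed no call of the 50 genes other than the 8 given in the report. Same-numbered libraries of the Nudt21 set correlated at -0.12, and a block with crossed numbers gave 1 higher and 22 lower there.

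With the GC and length correction the change of 9 of the 50 genes in activation, 13 in the Mettl3 knockout, 4 in the Nudt21 knockout and 6 in the difference had the other sign than with the values as deposited, and 6, 2, 0 and 0 of these had passed. With quantile normalization they were 4, 4, 4 and 7, of which 1, in activation, had passed. Those that had passed, or did so in that fit, were these. In activation Nat10 was -0.0025 with quantile normalization. With the GC and length correction, alone and with the replicate block, the activation changes were -0.015 for Rrn3, -0.0041 for Utp15, -0.026 for Nat10, -0.34 for Rrp9, -0.015 for Bop1, -0.12 for Ddx18 and -0.046 for Noc3l, of which Rrp9 passed (limma adjusted p = 0.01 and 0.0197). In the Mettl3 knockout Polr1c was -0.0041 and Nop10 -0.086 with the correction, and -0.0013 and -0.078 with the block as well.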
